A study of Homo sapiens with 6 samples.

Results

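The genes described here are those of cellular oxygen sensing: HIF1A, EPAS1, ARNT, EGLN1, EGLN2, EGLN3, VHL, HIF1AN and CA9. They were chosen by symbol, and all 9 had exactly 1 row among the 29122 genes of the deposited count table. RNA came from A549, an epithelial cell line derived from a human lung carcinoma. The BCLAF1-depleted group (3 libraries) was stably transduced with lentivirus carrying a short hairpin RNA against BCLAF1, whose nuclear protein has been linked to the control of transcription and splicing. The control group (3 libraries) carried, in the same way, a hairpin against firefly luciferase, a gene that human cells lack. The labels give neither the number of hairpins, nor whether the lines were clones or pools, nor the oxygen level or density at which the cells were grown. Nothing in them says that replicates were separate cultures, so the p-values rest on variation among these 6 libraries that could be technical only.

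Hypoxia-inducible factors are pairs of a regulated alpha subunit, HIF-1α (from HIF1A) or HIF-2α (from EPAS1), and the constant beta subunit ARNT. When oxygen is present, the prolyl hydroxylases EGLN1, EGLN2 and EGLN3 mark the alpha subunits, the VHL ubiquitin ligase binds the mark, and the subunits are degraded. The asparaginyl hydroxylase HIF1AN blocks the binding of their coactivators. CA9, a carbonic anhydrase of the cell surface, is a widely used reporter of HIF-1 activity. Control of the alpha subunits is largely at the protein level, and only RNA was measured here.

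Libraries summed to 33409158 to 40820922 counts in BCLAF1-depleted cells and 41098232 to 43928927 in controls. The BCLAF1-depleted libraries were the less alike, with Pearson correlations of log2 CPM of 0.9802 to 0.9845, against 0.9938 to 0.9951 between controls (CPM, counts divided by library size with TMM scaling factors). BCLAF1 itself, the check of the labels, had 39.0, 35.7 and 53.1 CPM in BCLAF1-depleted replicates 1 to 3 and 211.1, 199.0 and 203.2 CPM in controls 1 to 3. Fold changes moved with gene length: the fifth of tested genes with the shortest exon sequence had a median log2 fold change of 0.35, and the fifth with the longest had -0.19. The epithelial keratin genes KRT8, KRT18 and KRT7 were abundant in both groups, whereas KRT19 had at most 27 counts, and 6 epithelial markers summed to 34512 to 41993 CPM after depletion and 32614 to 34244 CPM in controls. Markers of blood, endothelial and fibroblast cells summed to 13.1 to 15.4 CPM after depletion and 20.7 to 22.4 CPM in controls, mostly COL1A1, and PTPRC had at most 4 counts in any library. Of the 6 such markers that were tested, 2 fell and 1 rose. CDH5 ran against the sum, with 74, 47 and 46 counts after depletion and 36, 30 and 31 in controls. The part of these markers in the results was not tested.

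Of the 9 members, 3 fell (CA9, HIF1A and EGLN1), 2 rose (EGLN3 and EGLN2) and 4 did not pass the test (EPAS1, VHL, HIF1AN and ARNT). The test was edgeR's quasi-likelihood test, with p-values adjusted by Benjamini-Hochberg over 15907 tested genes and a threshold of 0.05. It called 35.8% of all tested genes, 18.0% lower and 17.8% higher. For 7 members, 5 lower and 2 higher, no BCLAF1-depleted value fell within the control range or the reverse; so it was for 51.9% of all tested genes, 26.6% lower and 25.3% higher. Without BCLAF1-depleted replicate 1, 6 members were lower, since EPAS1, VHL and ARNT then passed, and 48.8% of all genes were called. Without BCLAF1-depleted replicate 2 or control replicate 2, EGLN3 was the 1 member higher. The changes therefore ran in both directions within the pathway, and the sizes differed by member from -5.27 to 1.05 on the log2 scale.

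**Figure D1:**
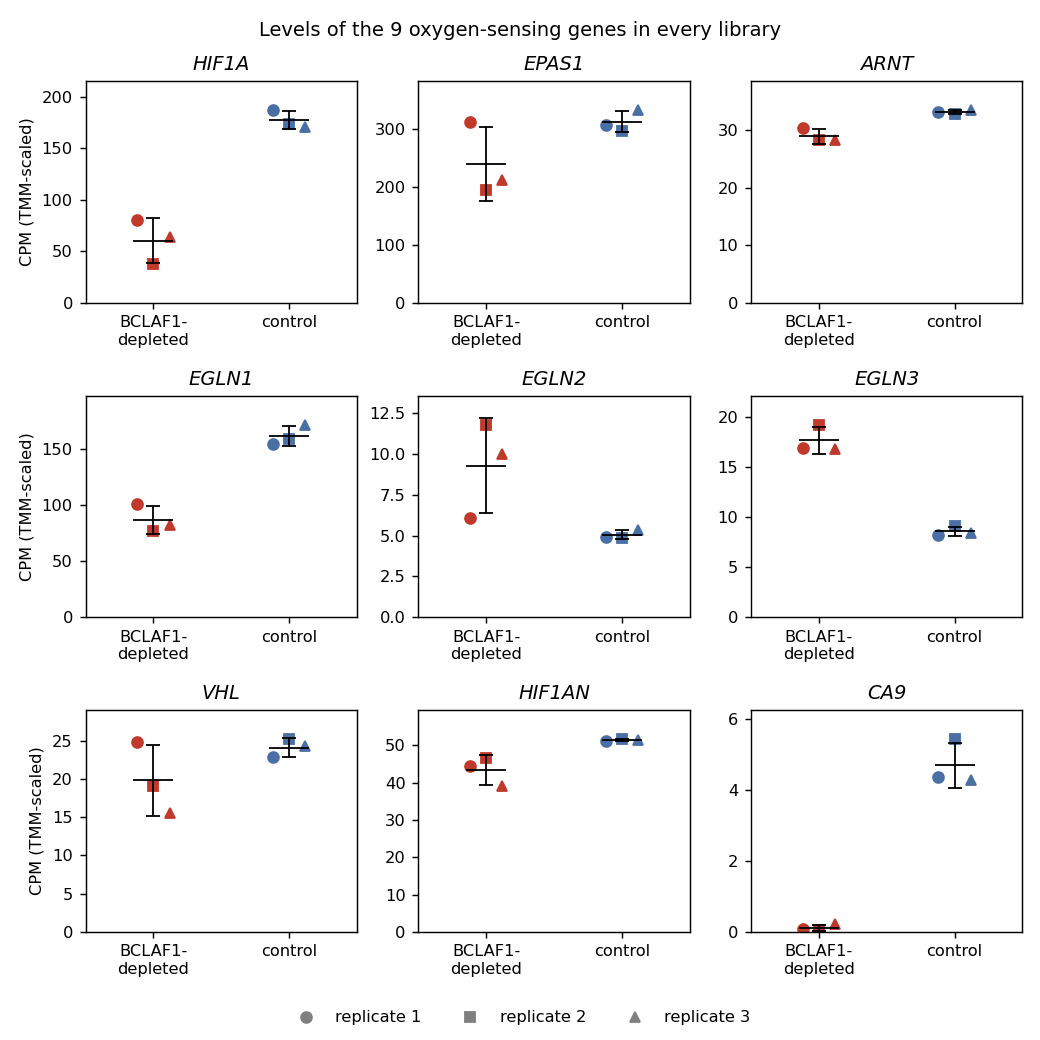
TMM-scaled CPM of the 9 genes in each library, 1 panel a gene, with each vertical axis starting at 0. Points are libraries (circle, square and triangle for replicates 1 to 3), and bars are the mean ± SD of 3 libraries. BCLAF1-depleted and control libraries lie apart for every gene except EPAS1 and VHL, where BCLAF1-depleted replicate 1 lies among the controls.

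HIF1A (ENSG00000100644.15; GRCh38 chromosome 14, 61695513 to 61748259, plus strand) codes for the alpha subunit of HIF-1. Its level was 80.2, 37.4 and 63.6 CPM in BCLAF1-depleted replicates 1 to 3 and 187.5, 173.5 and 171.1 CPM in control replicates 1 to 3. Every BCLAF1-depleted library lay below every control, and the BCLAF1-depleted libraries differed among themselves, with replicate 2 lowest. The means were 60.4 ± 21.6 and 177.4 ± 8.85 CPM (SD, n = 3 each), a 2.94-fold lower level after depletion. By edgeR's quasi-likelihood test the log2 fold change was -1.55 ± 0.23 (SE; adjusted p = 0.00131), lower than for all but 294 of the 15907 tested genes. It ranged from -1.84 without BCLAF1-depleted replicate 1 to -1.30 without replicate 2, and was past the threshold without each of the 6 libraries. In a bulk sample, fewer cells with the transcript and less RNA per cell cannot be told apart. The antisense transcripts HIF1A-AS1 and HIF1A-AS2 had at most 2 counts in any BCLAF1-depleted library and at most 7 in any control, too few to be tested.

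EPAS1 (ENSG00000116016.12; chromosome 2, 46293667 to 46386703, plus strand) codes for the alpha subunit of HIF-2. It had 312.4, 193.9 and 212.2 CPM in BCLAF1-depleted libraries, against 306.3, 296.9 and 332.4 CPM in controls. BCLAF1-depleted replicate 1 lay within the control range and replicates 2 and 3 below it. The log2 fold change was -0.38 ± 0.18 (edgeR adjusted p = 0.125), and without replicate 1 it was -0.64 with an adjusted p of 0.00166. With no low-count filter it also passed (-0.42, edgeR adjusted p = 0.0430). It was smaller with the length trend removed (-0.22, adjusted p = 0.321) and without BCLAF1-depleted replicate 2 (-0.25, adjusted p = 0.318), and larger with library totals (-0.58, adjusted p = 0.0648) and on log2(FPKM + 1) (-0.69, limma adjusted p = 0.0583).

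To set both alpha subunits side by side, the deposited FPKM values were used, which are scaled for gene length. HIF1A stood at 17.06, 6.86 and 10.33 FPKM in BCLAF1-depleted replicates 1 to 3 and at 42.39, 39.21 and 39.10 FPKM in controls. EPAS1 stood at 54.71, 29.29 and 28.37 FPKM after depletion and at 57.06, 55.27 and 62.59 FPKM in controls. Its FPKM values thus did not overlap although its CPM values did. Genes at large also ran lower on FPKM, with a median log2 fold change of -0.24 on log2(FPKM + 0.1), against 0.02 on TMM-scaled counts. TMM factors, which scale the CPM values, were 1.051, 0.9385 and 0.7953 in BCLAF1-depleted replicates 1 to 3. In controls 1 to 3 they were 1.076, 1.082 and 1.096. The part of the scaling and of the lower FPKM median in the EPAS1 values was not tested. EPAS1 RNA was the more abundant per length in all 6 libraries. The ratio of EPAS1 to HIF1A was 3.21, 4.27 and 2.75 in BCLAF1-depleted libraries and 1.35, 1.41 and 1.60 in controls. On the log2 scale the ratio averaged 1.74 ± 0.323 after depletion and 0.534 ± 0.129 in controls (SD, n = 3 each), a difference of 1.21. A two-sided exact permutation test gave p = 0.1, the smallest that 3 against 3 libraries can give.

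ARNT (ENSG00000143437.19; chromosome 1, 150809705 to 150876768, minus strand), the shared beta subunit, had 30.4, 28.2 and 28.2 CPM after depletion and 33.2, 32.8 and 33.5 CPM in controls. The groups did not overlap, yet the difference was small. The fitted log2 difference, -0.20 ± 0.11, missed the threshold (edgeR adjusted p = 0.171). It was -0.05 (adjusted p = 0.736) with the trend of fold change with gene length removed, and passed without BCLAF1-depleted replicate 1 (-0.25, adjusted p = 0.0462) and on log2(FPKM + 1) (-0.41, limma adjusted p = 0.0480).

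**Figure D2:**
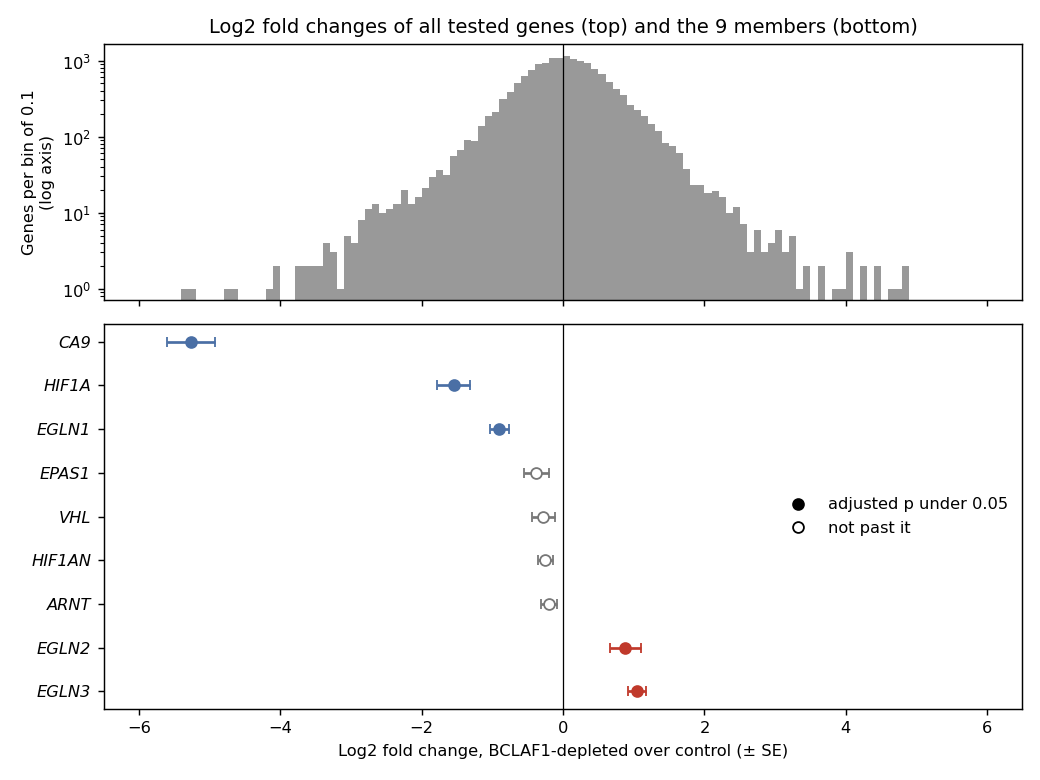
Log2 fold changes of BCLAF1-depleted over control libraries. The top panel counts all 15907 tested genes in bins of 0.1 on a log axis, and the bottom panel gives each member with its SE, filled where the adjusted p is under 0.05. CA9 lies at the far lower end of all genes at -5.27, HIF1A at -1.55 and EGLN1 at -0.90, while EGLN2 and EGLN3 lie on the higher side.

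The prolyl hydroxylases moved in different directions. EGLN1 (ENSG00000135766.8; chromosome 1, 231363751 to 231425044, minus strand), known as the main hydroxylase of HIF-1α in most cells, had 101.4, 77.2 and 82.2 CPM after depletion, against 155.1, 159.4 and 172.3 CPM in controls. All 3 BCLAF1-depleted values were below all controls. Its mean fell to 86.9 ± 12.8 CPM in BCLAF1-depleted cells, against 162.3 ± 8.96 CPM in controls (log2 fold change -0.90 ± 0.14, edgeR adjusted p = 0.00149). That is a 1.87-fold lower level.

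EGLN3 (ENSG00000129521.12; chromosome 14, 33924231 to 34462774, minus strand) is a hydroxylase whose own gene is a known HIF target. Its level was 16.9, 19.2 and 16.8 CPM after depletion and 8.24, 9.04 and 8.36 CPM in controls. The BCLAF1-depleted libraries lay close together and all above the controls. The mean rose to 17.6 ± 1.36 CPM in BCLAF1-depleted cells, against 8.55 ± 0.434 CPM in controls (1.05 ± 0.13, edgeR adjusted p = 0.000400), a 2.06-fold higher level. On log2(FPKM + 1) the difference was 0.52 (limma adjusted p = 0.0175) and on log2(FPKM + 0.1) it was 0.72 (adjusted p = 0.0172).

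EGLN2 (ENSG00000269858.4; chromosome 19, 40798996 to 40808433, plus strand), the paralogue found mostly in the nucleus, had 6.07, 11.8 and 9.99 CPM after depletion and 4.91, 4.87 and 5.36 CPM in controls. BCLAF1-depleted replicate 1 lay just above the controls and replicates 2 and 3 clearly above. The log2 fold change was 0.88 ± 0.22 (edgeR adjusted p = 0.0134). It missed the threshold without BCLAF1-depleted replicate 2 (0.67, adjusted p = 0.0551) and without control replicate 2 (0.85, adjusted p = 0.0510). It also missed it on log2(FPKM + 1) (0.36, limma adjusted p = 0.0943) and on log2(FPKM + 0.1) (0.51, adjusted p = 0.0901). EGLN2 shares 2012 bases, 30.6% of its exon length, with RAB4B-EGLN2, a readthrough gene on the same strand.

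No source used here gives the treatment of reads common to both genes. RAB4B-EGLN2 had 24.1, 28.2 and 22.1 CPM after depletion and 26.2, 25.0 and 27.2 CPM in controls (-0.08 ± 0.13, edgeR adjusted p = 0.665), so more reads carried its name than that of EGLN2. With both summed, the values were 30.1, 40.1 and 32.1 CPM after depletion and 31.1, 29.9 and 32.6 CPM in controls. The summed values overlapped and no longer passed (0.13 ± 0.13, edgeR adjusted p = 0.472). The sum takes every read named RAB4B-EGLN2, from whichever exons, so it is not a measure of EGLN2 alone. The call on EGLN2 therefore holds only for the reads the deposited table gives to EGLN2 alone.

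The balance of the 3 paralogues was set out per length, as shares of their summed FPKM. EGLN1 made up 72.3, 58.1 and 63.2% in BCLAF1-depleted libraries and 86.8, 86.6 and 87.4% in controls. EGLN3 made up 17.6, 21.0 and 18.8% after depletion and 6.73, 7.14 and 6.18% in controls. EGLN2 made up 10.2, 20.9 and 18.0% after depletion and 6.44, 6.22 and 6.41% in controls. EGLN1 stayed the most abundant of them in every library, and its mean share, BCLAF1-depleted minus control, was -22.5 percentage points. The same difference was 12.4 points for EGLN3 and 10.0 points for EGLN2. With shares taken from CPM per GENCODE exon length, the differences were smaller: -16.5 points for EGLN1, 10.5 for EGLN3 and 5.97 for EGLN2. Each of the 3 shares differed without overlap, with p = 0.1 in a two-sided exact permutation test, again the smallest possible. The summed FPKM was 17.9, 14.6 and 12.7 after depletion and 24.2, 24.9 and 27.0 in controls. On FPKM the median of all genes was lower as well (-0.24 on log2(FPKM + 0.1)), and the part of that shift in the sum was not tested. With RAB4B-EGLN2 added to EGLN2, the EGLN1 share was 49.0, 36.5 and 42.9% after depletion and 61.7, 62.9 and 63.2% in controls. EGLN2 and RAB4B-EGLN2 together, with reads from any exon of the readthrough gene, then exceeded EGLN1 in BCLAF1-depleted replicates 2 and 3. The EGLN3 share was then 11.9, 13.2 and 12.8% after depletion and 4.78, 5.18 and 4.47% in controls, a difference of 7.82 points.

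**Figure D3:**
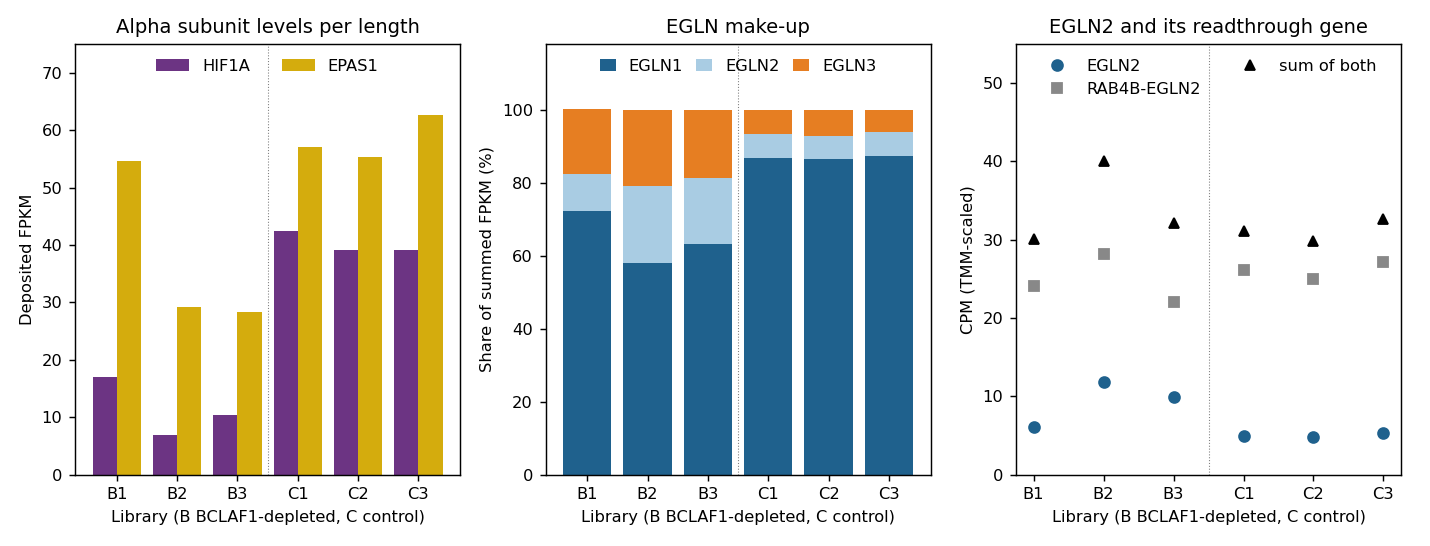
Left, deposited FPKM of HIF1A and EPAS1 in each library; middle, shares of EGLN1, EGLN2 and EGLN3 in their summed FPKM; right, TMM-scaled CPM of EGLN2, of the readthrough gene RAB4B-EGLN2 and of both summed. The ratio of EPAS1 to HIF1A is 2.75 to 4.27 in BCLAF1-depleted libraries (B1 to B3) and 1.35 to 1.60 in controls (C1 to C3), and the EGLN1 share is 58.1 to 72.3% against 86.6 to 87.4%.

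HIF1AN (ENSG00000166135.12; chromosome 10, 100529072 to 100559998, plus strand), the asparaginyl hydroxylase, had 44.5, 46.7 and 39.0 CPM after depletion and 51.3, 51.7 and 51.5 CPM in controls. The groups did not overlap, and the controls were nearly equal. The fitted log2 difference, -0.25 ± 0.11, missed the threshold (edgeR adjusted p = 0.117). HIF1AN has the longest exon sequence of the members, 13950 bases, and with the length trend removed its value was -0.01 (adjusted p = 0.956). It was -0.46 with library totals (adjusted p = 0.0618) and -0.41 on log2(FPKM + 1) (limma adjusted p = 0.0502).

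VHL (ENSG00000134086.7; chromosome 3, 10141008 to 10152220, plus strand), the subunit of the ubiquitin ligase that recognises hydroxylated alpha subunits, had 24.8, 19.1 and 15.5 CPM after depletion and 22.8, 25.2 and 24.3 CPM in controls. As with EPAS1, BCLAF1-depleted replicate 1 lay among the controls and the other replicates below them. The log2 fold change was -0.28 ± 0.16 (edgeR adjusted p = 0.199), and -0.50 (adjusted p = 0.0106) without replicate 1. Without BCLAF1-depleted replicate 3 it was -0.14 (adjusted p = 0.478).

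CA9 (ENSG00000107159.11; chromosome 9, 35673856 to 35681159, plus strand) had the largest change of the members. It was counted 3, 2 and 7 times in BCLAF1-depleted libraries and 193, 241 and 206 times in controls. These are 0.0855, 0.0587 and 0.216 CPM after depletion and 4.37, 5.43 and 4.28 CPM in controls. All BCLAF1-depleted libraries were near the floor, since 3 counts equal 0.0735 to 0.0898 CPM there before TMM scaling. Summed over libraries, 12 counts after depletion stood against 640 in controls, relative to library size a ratio of 0.0252 with a 95% exact interval of 0.0130 to 0.0443 for counting error alone, or a 39.7-fold lower level. The fitted log2 fold change was -5.27 ± 0.34 (edgeR adjusted p = 1.24e-05), and only 2 of 15907 tested genes had a lower one. CA9 passed the low-count filter through its controls alone. It was past the threshold without each library in turn (-5.96 to -4.95). On log2(FPKM + 1) the difference was -1.84 (limma adjusted p = 7.92e-05) and on log2(FPKM + 0.1) it was -4.22 (adjusted p = 7.02e-05).

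CA9 shares 643 bases, 38.5% of its exon length, with ARHGEF39 on the opposite strand, and no source used here gives the strand setting of the counting. ARHGEF39 had 12.1, 12.5 and 10.5 CPM after depletion and 12.0, 11.3 and 13.0 CPM in controls (-0.05 ± 0.13, edgeR adjusted p = 0.773). The near-zero CA9 counts thus stood beside an overlapping gene whose values overlapped between the groups.

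Set per length, EPAS1 led in controls (55.27 to 62.59 FPKM), followed by HIF1A (39.10 to 42.39) and EGLN1 (21.03 to 23.61). ARNT and VHL came next with control ranges that overlapped (6.38 to 6.60 and 5.87 to 6.49 FPKM), then HIF1AN (3.79 to 3.85) and CA9 (2.57 to 3.23). EGLN3 and EGLN2 were lowest and overlapped (1.63 to 1.78 and 1.55 to 1.73 FPKM). The place of EGLN2 holds only for reads given to EGLN2 alone, since RAB4B-EGLN2 had 9.42 to 10.36 FPKM in controls, above ARNT and VHL. In BCLAF1-depleted libraries EPAS1 led as well (28.37 to 54.71 FPKM), HIF1A (6.86 to 17.06) overlapped EGLN1 (8.0 to 12.93), and CA9 (0.03 to 0.09) was last. HIF1AN (2.07 to 3.09), EGLN3 (2.38 to 3.14) and EGLN2 (1.82 to 3.06 FPKM) overlapped there.

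HIF binds the core ACGTG or GCGTG of the hypoxia response element. RefSeq promoter windows on GRCh38.p14, from 250 bases before to 50 after a gene's start, were at hand for 8 members. ACGTG, searched on both strands, was found in CA9, EGLN1 and EGLN2, as in 21.4% of 35116 windows of this length. GCGTG was found in HIF1A and EPAS1, as in 36.5% of them, and those stretches are not shown. Neither core was found in EGLN3, which rose, nor in ARNT or HIF1AN, and VHL had no window. The 3 stretches with ACGTG are shown because CA9 and EGLN1 fell and EGLN2 did not; capitals mark the motif, read 5′ to 3′ on the gene's strand, where CACGT is its reverse complement.
CA9 (chr9:35673897-35673926, plus strand): ctcgtttccaatgCACGTacagcccgtaca
EGLN1 (chr1:231422284-231422313, minus strand): ggggccgtggtgtACGTGcagagcgcgcag
EGLN2 (chr19:40799130-40799159, plus strand): gcggggcgcggtCACGTGcccaccgggcga
Counted from the RefSeq start of each window, the match begins 18 bases before the start in CA9, 13 bases before it in EGLN1 and 49 bases before it in EGLN2. These starts are not the GENCODE gene starts given above, and all 3 stretches lie inside the GENCODE gene spans. In EGLN2 the motif is read on both strands, as the palindrome CACGTG, which is also the E-box letter sequence. These are matches of letters, not sites of measured binding.

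The other genes of the pathway were grouped in 4 lists. Among HIF partners and regulators of HIF protein, 7 of 29 tested genes rose and 6 fell (44.8% called, against 35.8% of all tested genes), with a median log2 fold change of 0.00, against 0.02 for all genes. CITED4 and CITED2, whose products compete with HIF for the coactivators p300 and CBP, both rose. CITED4 averaged 21.3 ± 3.33 CPM after depletion and 9.14 ± 1.41 CPM in controls (1.22 ± 0.16, edgeR adjusted p = 0.000723), and CITED2, which is also among the HIF targets below, averaged 23.9 ± 4.45 CPM after depletion and 11.7 ± 0.893 CPM in controls (1.03 ± 0.15, adjusted p = 0.00130). ARNTL, the clock gene also called BMAL1, fell by 1.09 on the log2 scale (adjusted p = 0.00690), and the deubiquitinase gene USP33 fell by 1.02 (adjusted p = 0.00164).

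The ligase subunits that work with VHL were named after their values were seen. The adaptors ELOB (0.94 ± 0.22, edgeR adjusted p = 0.0109) and ELOC (0.78 ± 0.12, adjusted p = 0.00160) rose; on log2(FPKM + 1) ELOB had 0.58 and missed the threshold (limma adjusted p = 0.0552). The scaffold CUL2 (-0.47 ± 0.17, adjusted p = 0.0572) and the RING subunit RBX1 (0.39 ± 0.21, adjusted p = 0.168) did not pass. CUL2 was close to the threshold and passed in 10 of 21 other settings, among them no low-count filter (-0.51, adjusted p = 0.00506), library totals (-0.70, 0.0204), DESeq2 (-0.46, 0.0451), limma-voom (-0.50, 0.0489), log2(FPKM + 1) (-0.68, 0.0254), and without BCLAF1-depleted replicate 1 (-0.58, 0.0278) or 3 (-0.59, 0.0407). RBX1 passed without control replicate 3 (0.67, adjusted p = 0.0379). Of the list as a whole, 3 genes fell with the length trend removed, 3 without control replicate 2 and 2 without control replicate 3. The shares of all tested genes called in these fits were 32.9, 18.1 and 19.7%. With libraries scaled by their totals alone, 10 fell, where the median of all tested genes was itself -0.21.

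Among other oxygen-using dioxygenases, 12 of 31 tested genes fell and 2 rose (45.2% called), with a median log2 fold change of -0.35. P4HA3, a subunit of collagen prolyl 4-hydroxylase, averaged 3.02 ± 0.636 CPM after depletion and 16.0 ± 0.293 CPM in controls (-2.41 ± 0.17, edgeR adjusted p = 1.94e-05). The histone demethylase genes KDM3B (-0.65 ± 0.17, adjusted p = 0.0144) and KDM6A (-0.79 ± 0.27, adjusted p = 0.0436) fell, and KDM6B (0.73 ± 0.15, adjusted p = 0.00635) rose, although it missed the threshold on log2(FPKM + 1) (0.32, limma adjusted p = 0.0640). KDM6A missed the threshold without any 1 library other than BCLAF1-depleted replicate 1 (adjusted p up to 0.135), while without that library its value was -1.28, and KDM3B without control replicates 1 (0.0570) and 2 (0.0553). With the length trend removed 5 of the list fell and 4 rose, and its median was -0.15. The number that fell was 19 without BCLAF1-depleted replicate 1, 7 without replicate 2 or 3, and 4, 2 and 5 without control replicates 1, 2 and 3; 1 rose without each control. Of all tested genes, 48.8% were called without BCLAF1-depleted replicate 1 and 18.1 to 19.7% without a control.

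Of 33 tested HIF targets outside glycolysis, other than the members, 6 rose and 9 fell. Of the list, 45.5% were called, against 35.8% of all tested genes, and the median log2 fold change was -0.18. The list shares P4HA1, P4HA2, KDM3A and JMJD6 with the dioxygenases, and WSB1 and CITED2 with the partners. P4HA2 and KDM3A count among those that fell in both lists, and CITED2 among those that rose in both. HMOX1, which codes for a heme oxygenase and is also an NRF2 target, rose the most: 119.2 ± 2.60 CPM after depletion against 35.0 ± 3.01 CPM in controls (1.77 ± 0.12, edgeR adjusted p = 1.43e-05). ANGPTL4, a secreted inhibitor of lipoprotein lipase, rose by 1.42 ± 0.17 (adjusted p = 0.000432), and ADM, the vasodilator peptide adrenomedullin, by 1.17 ± 0.14 (adjusted p = 0.000349). The lipoprotein receptor gene VLDLR averaged 10.9 ± 1.55 CPM after depletion and 46.6 ± 3.23 CPM in controls (-2.09 ± 0.14, adjusted p = 1.43e-05). The number that fell was 5 without control replicate 1 or 2, where 18.1% of all tested genes were called. With the length trend removed the median was -0.03.

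Chosen after its values were seen, CA12, a carbonic anhydrase related to CA9, averaged 299.2 ± 16.7 CPM after depletion and 573.7 ± 17.8 CPM in controls (-0.94 ± 0.13, edgeR adjusted p = 0.000863). BHLHE40 (-0.93, adjusted p = 0.00194) and NDRG1 (-0.61, adjusted p = 0.00432), a repressor and a stress-response gene chosen in the same way, also fell. VEGFA, the angiogenic growth factor, was also chosen after its values were seen and had -0.46 ± 0.13 (adjusted p = 0.0225). It missed the threshold without BCLAF1-depleted replicate 2 (0.0504), without control replicates 1 (0.0800), 2 (0.0717) and 3 (0.0836), and with the length trend removed (-0.24, 0.142).

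The share called among 22 tested glycolytic HIF targets was 36.4%, against 35.8% of all tested genes (18.0% lower, 17.8% higher). Of the 22, 8 fell and 0 rose, with a median log2 fold change of -0.23. For the 0 there, DESeq2's Wald test gave 0 as well, and 0 genes were higher at an unadjusted p under 0.05. ALDOC, a fructose-bisphosphate aldolase, averaged 1.95 ± 0.668 CPM after depletion and 4.60 ± 0.964 CPM in controls (-1.24 ± 0.26, edgeR adjusted p = 0.00648). PGK1, phosphoglycerate kinase, averaged 342.5 ± 57.8 CPM after depletion and 528.3 ± 35.1 CPM in controls (-0.63 ± 0.16, adjusted p = 0.0127), PFKL had -0.62 (adjusted p = 0.00343) and PDK1 -0.56 (adjusted p = 0.0212). Fewer fell without control replicate 1 (3), 2 (2) or 3 (2), where 18.1, 18.1 and 19.7% of all tested genes were called. PGK1 then missed the threshold without control replicates 2 (edgeR adjusted p = 0.0544) and 3 (0.0626). PDK1 missed it with each control left out in turn (0.0575 to 0.0867). With the length trend removed 4 fell and 2 rose, and PDK1 had -0.33 (adjusted p = 0.115). Without BCLAF1-depleted replicate 1, 1 gene rose.

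**Figure D4:**
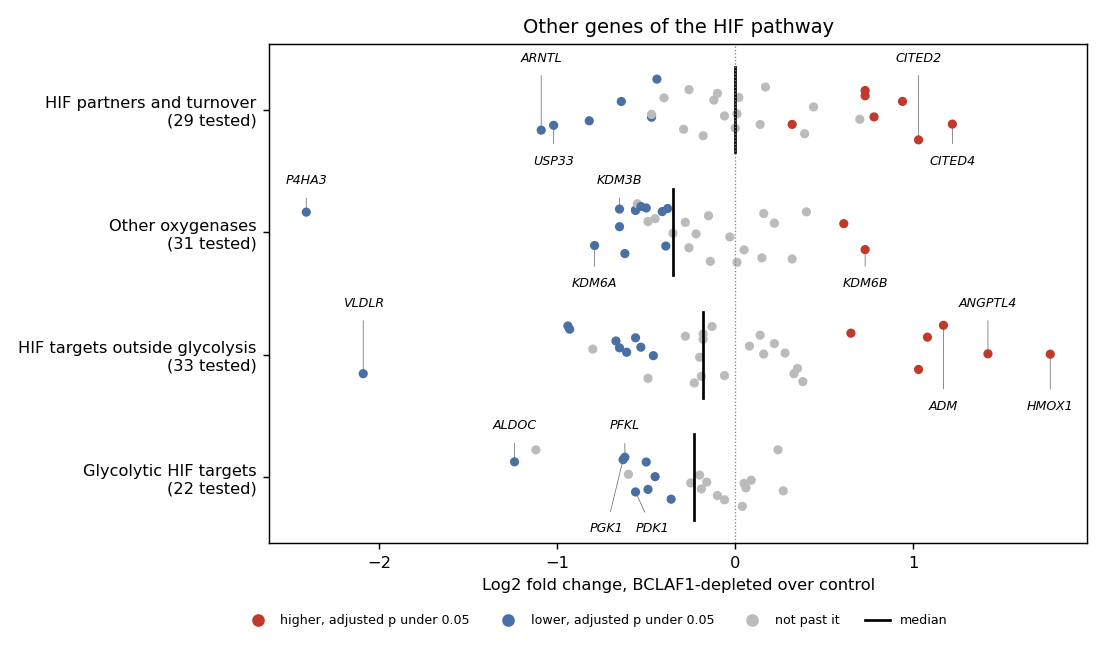
Log2 fold changes, BCLAF1-depleted over control, of the tested genes in 4 lists of HIF pathway genes, with the vertical position within a list drawn at random. Red and blue points passed an adjusted p under 0.05, grey points did not, and black bars are list medians (0.00, -0.35, -0.18 and -0.23 from top to bottom). Genes named by rule are labelled, from P4HA3 at -2.41 to HMOX1 at 1.77.

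The patterns over the 6 libraries most like those of HIF1A, EPAS1 and CA9 were sought among the 10173 genes averaging 5 CPM or more, by Pearson correlation of log2 CPM. For HIF1A these were ADNP (r = 0.9994), HNRNPH1 (0.9988) and PER2 (0.9988). For EPAS1 they were VAV3 (0.9995), HAUS3 (0.9984) and KIRREL (0.9973). For CA9 they were GABRA5 (0.9990), PPP2R5D (0.9985) and MYRF (0.9985), where the CA9 values after depletion rest on 3, 2 and 7 counts. All points share the split into groups, and the gene in place 100 still reached 0.9919 for HIF1A, 0.9767 for EPAS1 and 0.9835 for CA9, so these names are a description of 6 libraries. The size of the change was not alike: ADNP had a log2 fold change of -0.57 and GABRA5 of -1.03.

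**Figure D5:**
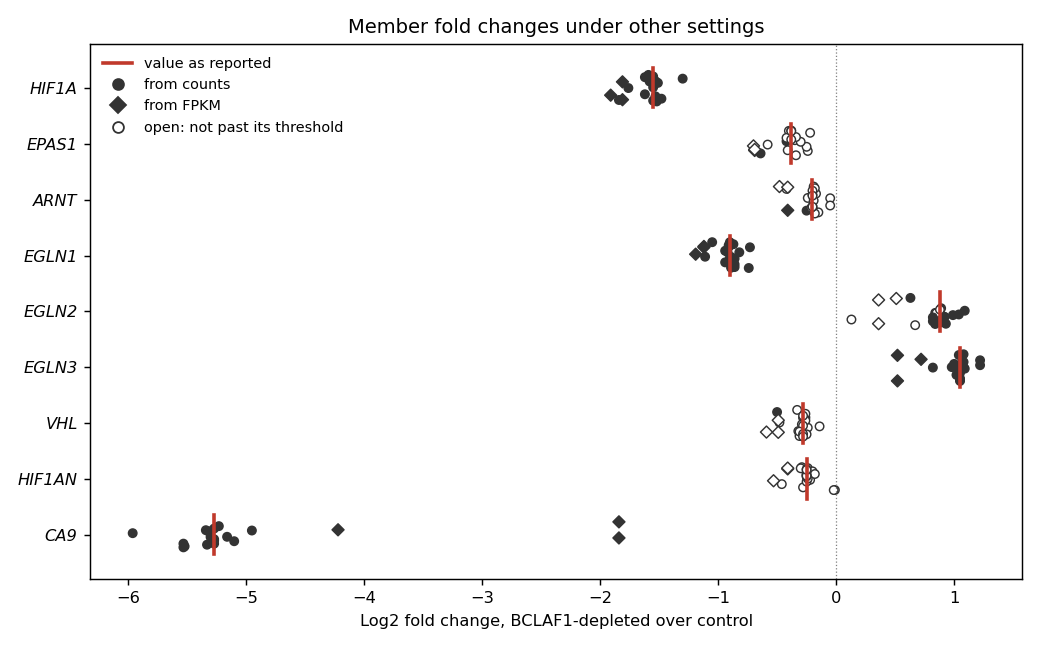
Log2 fold change of each member, BCLAF1-depleted over control, as reported (red bar) and under the other settings (circles from counts, diamonds from FPKM); filled symbols passed their threshold. HIF1A, EGLN1, EGLN3 and CA9 are filled at every setting tried, HIF1AN at none, and EGLN2 runs from 0.13 to 1.09.

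The share of all tested genes called varied with the setting and is the background for each count given under it. By edgeR it was 35.9% with DESeq2 size factors, 36.1% with upper-quartile scaling, 31.1% with library totals, 22.2% with no low-count filter, 40.7% with the filter of 5 CPM, 37.8% with the replicate block and 32.9% with the length trend removed. It was 48.8, 25.0 and 30.8% without BCLAF1-depleted replicates 1, 2 and 3, and 18.1, 18.1 and 19.7% without control replicates 1, 2 and 3. DESeq2's Wald test called 38.0% and limma-voom 36.0%. On FPKM, limma called 28.3% with a pseudocount of 1, 27.3% with 0.1 and 9.11% with no filter. At an adjusted p under 0.01 edgeR called 15.3%.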

How the data were processed

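Groups and replicate numbers came from the titles; sample names write "si", whereas the protocol describes a lentiviral hairpin. Per the labels' protocols, libraries were directional and made from oligo(dT)-selected RNA. The authors deposited whole-number read counts per gene for 29122 genes and FPKM values for 28878, with 1 column a library. Per the submitters' processing notes, bcl2fastq, TopHat2, edgeR and GRCh38 were used; versions, roles, counting tool, annotation and strand setting were found in no source used here.

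The test of counts was edgeR's (4.0.16, R 4.3.3; glmQLFit and glmQLFTest, TMM, group as the only term) on the 15907 genes that filterByExpr kept (minimum count 10, total 15). The SE is the log2 fold change divided by the root of F. The members and lists were chosen with earlier results of these data known. Named were BCLAF1, all members, per list up to 4 called genes with the largest change, and the 3 genes most like HIF1A, EPAS1 and CA9; others are said to be chosen later. Ratios and shares used deposited FPKM. For list symbol KDM4C, the row whose identifier carries that name was used.

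Positions and exon lengths came from GENCODE release 29 (GRCh38), matched for 99.2% of tested genes. The length trend was a smooth function (mgcv 1.9.3, basis size 8) per library, used as an offset. Alternatives were other scalings, filters, a replicate block, each library left out, DESeq2 1.42.0, limma 3.58.1 voom, limma on log2(FPKM + 1) and log2(FPKM + 0.1), and a threshold of 0.01. Summing EGLN2 with RAB4B-EGLN2 was added after seeing the data. Intervals and floors cover counting error only, as reads carry no molecular identifiers. The fit was tested on simulated counts without a length trend, in which 15444 of 15644 genes were left unchanged. The data here, with 35.8% of tested genes called and a trend with gene length, differ from that setting.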

Additional observations from a re-analysis of the deposited data

How the results depend on the processing

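Over 21 other settings no member changed direction. Of these settings, the threshold of 0.01 reused the reported fold changes and could not change a direction. Summing EGLN2 with RAB4B-EGLN2 left the fold changes of the other members the same as printed. HIF1A, EGLN1 and EGLN3 passed in all 21 and CA9 in all 20 that kept it, as the filter of 5 CPM removed it. The log2 fold change ranged from -1.91 to -1.30 for HIF1A, from -1.19 to -0.73 for EGLN1, from 0.52 to 1.22 for EGLN3 and from -5.96 to -1.84 for CA9, the last from FPKM with a pseudocount of 1. EGLN2 passed in 14 of 21, with the setting of 0.01 held to its own threshold. EPAS1 passed in 2, ARNT in 2 (among them log2(FPKM + 1), limma adjusted p = 0.0480), VHL in 1 and HIF1AN in 0. Where a value below differs, the cause was not tested. Members higher numbered 1 on log2(FPKM + 1), on log2(FPKM + 0.1), on log2(FPKM + 1) without filter, at a threshold of 0.01 and with EGLN2 and RAB4B-EGLN2 summed, and 1 to 2 with a library left out; members lower were 3 to 6 with a library left out.

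Of all tested genes, 2827 were higher and 2870 lower. Higher genes numbered 1283 with library totals alone (3662 lower), 983 on log2(FPKM + 1), 968 on log2(FPKM + 0.1) and 573 with no filter on FPKM. The median log2 fold change of all tested genes was 0.02, against -0.21 with library totals, -0.13 on log2(FPKM + 1) and -0.24 on log2(FPKM + 0.1). At 0.01 the calls were 1149 and 1287, and with a library left out 1383 to 3741 higher and 1549 to 4195 lower. Among HIF partners, 3 rose in each FPKM setting and at 0.01, and 10 fell with library totals and on filtered FPKM, 3 with the length trend removed, 2 at 0.01 and 2 to 9 with a library left out. Dioxygenases that rose numbered 1 with library totals, no low-count filter, the 5 CPM filter, DESeq2 or a threshold of 0.01, 4 with the length trend removed, 0 in the FPKM settings and 1 to 2 with a library left out. Those that fell numbered 5 with the length trend removed, 6 with block as well, 3 on unfiltered FPKM, 2 at 0.01 and 2 to 19 with a library left out. Of targets outside glycolysis 5 fell at 0.01 and 5 to 12 with a library left out. Of glycolytic targets 2 rose with the length trend removed, with or without block, and 0 to 1 with a library left out; 4 fell with the trend removed, 5 with block as well, 4 on unfiltered FPKM, 2 at 0.01 and 2 to 11 with a library left out.

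The ratio of EPAS1 to HIF1A and the EGLN shares kept their direction in every setting tried. The deviations of same-numbered libraries correlated at 0.0360, 0.0466 and 0.119, so the numbers were not taken to pair the libraries. With the replicate block, 2886 genes were higher and 3121 lower, 1 dioxygenase rose, and no member's call changed (HIF1A -1.62, EPAS1 -0.41), while CUL2 passed (-0.49, adjusted p = 0.0152). Of ARHGEF39, the uncalled sign turned with the length trend removed (0.10, with block 0.09) and without BCLAF1-depleted replicate 3, in a range of -0.11 to 0.01 over the libraries left out. Depth limits CA9 after depletion, where 2 to 7 counts leave its level within counting error of 3 counts.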
